A study of Caenorhabditis elegans with 2 samples.

Results

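Of the 4293 reproducible binding peaks of a tagged transcription factor in whole Caenorhabditis elegans larvae, 749 (17.4%) lay on the 5 autosomes, away from coding gene starts, outside coding genes, and without the canonical E-box near their summits. These distal intergenic peaks were selected by their reproducibility call, position and sequence: the peak had passed the IDR comparison, its summit lay outside every protein-coding gene body and outside the window from 1000 bp upstream to 200 bp downstream of every protein-coding gene start, and no CACGTG lay wholly within 100 bp of the summit. IDR, the irreproducible discovery rate, ranks peaks by how well replicates agree on them. The 749 peaks were 23.0% of the 3257 autosomal IDR peaks (exact Clopper-Pearson 95% interval 21.6 to 24.5%), and autosomal IDR peaks without the E-box numbered 2648. Of 27577 peaks called on both replicates together, 15.6% passed IDR genome-wide, and of the 5270 with the same position and sequence, 749 (14.2%) did; the rule used this call, so nothing is read from it.

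The series holds 2 biological replicates of 1 group, with no other genotype, stage or treatment. The animals were L4 larvae, the last larval stage, of strain OP355, genotype unc-119(tm4063) III; wgIs355, with males and females pooled, and chromatin fragments of 150 to 350 bp were sequenced. Strain and antibody labels name mdl-1, whereas another label names the tagged protein as eGFP-ZK337.2; which is right could not be settled here, so the protein is called the tagged factor. All tissues of the worm were pooled, so a strong peak in few cells and a weaker one in many cannot be told apart. Sequencing depth is unknown, and no control library was analysed here.

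MDL-1 is the worm relative of the mammalian Mad proteins, basic helix-loop-helix leucine zipper factors that pair with a Max-like partner and bind the E-box CACGTG. In mammals the Mad proteins repress genes in the network in which Myc activates them. In the compact worm genome, such sequence holds enhancers as well as genes for tRNAs, small nucleolar RNAs, spliced leader RNAs, microRNAs and piRNAs.

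The windows around the strongest of these peaks are shown for some of the hexamers searched at all of them. The 6 below reach 100 bp to either side of the summits of the 6 strongest of the 749 peaks, on the plus strand of ce11 from RefSeq, named by the nearest coding gene start. Capitals mark GAGAGA and its reverse complement TCTCTC, the hexamer AGACGC and its reverse complement GCGTCT, and the palindrome GCGCGC. They lie at III:3801434-3801634 for mtm-3, V:10466646-10466846 for egl-9, III:7155770-7155970 for ogt-1, IV:14594325-14594525 for irld-18, III:4282081-4282281 for sup-26 and III:13068422-13068622 for Y39E4B.6.
mtm-3: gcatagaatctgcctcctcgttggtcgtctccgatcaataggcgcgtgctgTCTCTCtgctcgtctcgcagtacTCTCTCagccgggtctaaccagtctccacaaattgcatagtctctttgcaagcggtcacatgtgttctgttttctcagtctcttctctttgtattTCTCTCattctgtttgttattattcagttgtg
egl-9: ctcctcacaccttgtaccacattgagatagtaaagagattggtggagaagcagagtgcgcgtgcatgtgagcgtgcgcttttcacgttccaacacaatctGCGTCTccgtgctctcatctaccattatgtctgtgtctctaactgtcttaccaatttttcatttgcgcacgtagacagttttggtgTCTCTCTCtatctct
ogt-1: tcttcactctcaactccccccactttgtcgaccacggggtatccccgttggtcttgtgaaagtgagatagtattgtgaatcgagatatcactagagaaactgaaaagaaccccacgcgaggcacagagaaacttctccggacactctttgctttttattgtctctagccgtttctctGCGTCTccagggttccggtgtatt
irld-18: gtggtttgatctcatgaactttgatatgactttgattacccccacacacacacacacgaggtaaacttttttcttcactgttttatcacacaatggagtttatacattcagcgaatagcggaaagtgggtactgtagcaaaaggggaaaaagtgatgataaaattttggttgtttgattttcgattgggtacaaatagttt
sup-26: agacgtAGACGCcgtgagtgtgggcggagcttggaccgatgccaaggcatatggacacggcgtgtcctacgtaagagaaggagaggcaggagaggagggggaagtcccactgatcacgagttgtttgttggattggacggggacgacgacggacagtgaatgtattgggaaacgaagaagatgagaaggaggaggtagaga
Y39E4B.6: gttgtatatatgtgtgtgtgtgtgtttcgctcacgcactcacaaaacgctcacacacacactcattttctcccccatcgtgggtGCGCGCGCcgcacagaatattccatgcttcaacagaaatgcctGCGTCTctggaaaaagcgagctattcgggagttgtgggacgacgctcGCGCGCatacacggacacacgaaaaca
Of these windows, 1 (irld-18) held none of the hexamers, and the one at egl-9 held both GAGAGA and AGACGC. Among the 20 strongest peaks, 12 had GAGAGA within 100 bp of the summit, 10 had AGACGC and 2 had GCGCGC. Over all 749 peaks the shares were 53.7%, 23.9% and 7.48%.

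Signal in the IDR list, the peak caller's own value on the pooled replicates, ran from 45.7 to 846 over the 749 peaks, with quartiles of 56.2, 73.1 and 105.4. The median was 68.6 for the 632 autosomal intronic peaks without E-box, 71.5 for the 1198 coding promoter peaks without E-box and 101.3 for the 181 distal intergenic peaks with E-box. Signal took part in choosing the peaks, so these medians are a description: the median of the distal intergenic peaks was close to those of intronic and promoter peaks without E-box, and the E-box-bearing distal peaks had the highest median of the 4 classes. In all, 351 of the 749 reached the median of all IDR peaks, 75.03.

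All 749 peaks overlapped a peak in each replicate's own list, against 99.7% of all IDR peaks, and with overlap of 50% of both peaks required the share was 93.3%. The peaks were chosen by agreement between the replicates, so such overlap is a description. The strongest overlapping peak had a median signal of 40.1 in replicate 1 (11.9 to 442) and 36.6 in replicate 2 (8.34 to 405). Replicate 1 was higher at 460 of the 749 (61.4%), against 58.4% over all IDR peaks. The replicates differed by more than 2-fold at 59 of the 749, and at 338 of the 4279 IDR peaks overlapped in both lists. Across the 749 peaks, the median log2 ratio (replicate 1 over 2) was 0.13 with an SD of 0.56. The median became -0.02 when the peaks were taken from the strongest of replicate 2's list and 0.24 when taken from replicate 1's. The median distance from the IDR summit was 11 bp in each replicate, and 85.4% and 86.8% lay within 50 bp. Over all IDR peaks the medians were 9 and 10 bp, with 87.9% and 87.2% within 50 bp. A replicate peak can overlap more than 1 IDR peak, so close neighbours may share a value.

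**Figure D1:**
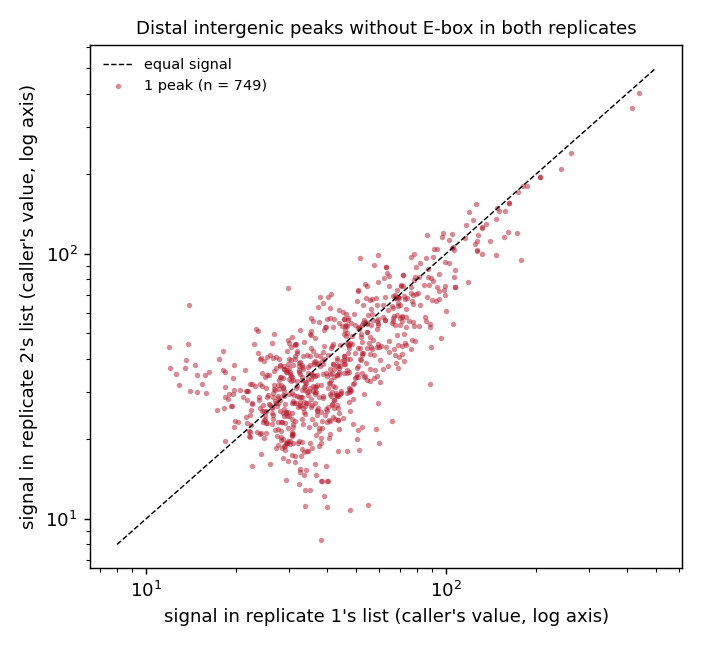
Each point is 1 of the 749 distal intergenic peaks without E-box, placed by the caller's signal of the strongest overlapping peak in replicate 1 (x) and replicate 2 (y), both on log axes; the dashed line marks equal signal. The strongest peaks lie close to the line, and 59 of the 749 lie more than 2-fold off it.

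Spearman's rho between replicates was 0.675 across the 749 peaks, a description over peaks that share the same 2 libraries. It was 0.599 for intronic and 0.685 for promoter peaks without E-box, 0.871 for distal peaks with E-box and 0.715 over all IDR peaks. The 2 highest and 2 lowest ratios were as follows. A peak nearest C48A7.16 on chromosome IV had 54.8 in replicate 1 and 11.3 in replicate 2 (log2 ratio 2.28), and one nearest snt-1 on chromosome II had 38.3 and 8.34 (2.198). In the other direction, a peak at B0334.20 on chromosome II had 13.9 and 63.9 (-2.21), and one at oac-46 on chromosome II had 11.9 and 44.3 (-1.89). These 4 had IDR signals of 50.4 to 79.6, around the median of 73.1 and below the upper quartile of 105.4. Most peaks (673) had the same width of 396 bp and a median signal of 68.6, and those of other widths had a median of 209.

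The strongest peak spanned III:3801297-3801761 (ce11), 1067 bp upstream of mtm-3, a myotubularin-type phosphoinositide phosphatase, and next to xbx-5 on its other side. Its signal was 846, with 442 in replicate 1 and 405 in replicate 2. The second, at V:10466549-10466942, had 758, 416 and 355, and its summit lay 1771 bp upstream of egl-9 and inside the annotated non-coding RNA genes F22E12.10 and F22E12.9. EGL-9 is the prolyl hydroxylase that marks the hypoxia-inducible factor HIF-1 for degradation. Next, the peak at III:7155692-7156063, had 496, 260 and 241 and lay 156 bp from the nearest coding gene body, on the side of nuo-4, and 2073 bp upstream of ogt-1, which encodes the enzyme that adds O-linked N-acetylglucosamine to proteins. At these 3 sites the replicates differed by a log2 ratio of 0.11 to 0.23, below the spread of 0.56 over all 749.

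A peak upstream of sup-26, an RNA-binding translational regulator, had a signal of 401 (206 and 195 in replicates 1 and 2) at III:4281905-4282598 and overlapped another of the peaks, 204 bp away. The peak at chd-7, a chromodomain helicase gene on chromosome I, had 359 (186 and 179) and lay inside linc-91. The peak 4770 bp upstream of cmd-1, the calmodulin gene, had 297 (158 and 145) and lay inside linc-128. The peak 3089 bp upstream of fos-1, a Fos-type leucine zipper factor needed for anchor cell invasion, had 294 (151 and 144) at V:6000332-6000639. In each of these the replicates stood within a log2 ratio of 0.12.

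Further down the 20 strongest were ret-1, the reticulon gene (signal 284, with 161 and 121 in the replicates), and nduf-7, a complex I subunit gene (283, with 126 and 154). Next were pptr-1, a regulatory subunit of protein phosphatase PP2A (279, with 146 and 135), nhr-21, a nuclear hormone receptor gene (264, with 136 and 130), and ubc-8, a ubiquitin-conjugating enzyme gene (259, with 131 and 126). The nhr-21 peak, at II:7337598-7337871, was the strongest on chromosome II, and chd-7, mtm-3, irld-18 and egl-9 had the strongest on chromosomes I, III, IV and V. The other members of the 20 were nearest Y39E4B.6 (362), F58D5.5 (343), C33D9.3 (300), F42C5.9 (296), T19C3.4 (288) and F54F12.1 (272), beside irld-18 and Y37A1B.7 described next. Of the 20 peaks, 19 were upstream of the nearest coding start, and 7 had a non-coding gene or pseudogene at or within 200 bp of the summit.

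Among the 20, the replicates stood farthest apart in the only convergent gap. The peak nearest Y37A1B.7 on chromosome IV, signal 270, had 178 in replicate 1 and 94.95 in replicate 2 (log2 ratio 0.90). It lay 10001 bp downstream of the nearest coding start, among the non-coding RNA genes Y37A1B.330 and Y37A1B.333.

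Both peaks farthest from any coding start were in the gap between irld-18, which encodes an insulin/EGF-receptor L domain protein, and dmd-6, a doublesex/mab-3 domain factor gene. This divergent gap spans 35563 bp on the right arm of chromosome IV. The nearer, at IV:14594232-14594674, lay 13386 bp from irld-18 and was the fourth strongest of the 749, with 451 pooled, 242 in replicate 1 and 208 in replicate 2. The farther lay 16941 bp from irld-18 and had 61.3, 37.7 and 22.1. A strong and a weak peak thus stood in the same gap. The printed irld-18 window had 36.3% GC, below the first quartile of 38.3% over all 749.

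Where the 749 peaks lay among genes was compared with the sequence open to them, 19.4 Mb or 23.5% of the autosomes. They reached 38.6 peaks per Mb of that sequence, close to the 39.5 per Mb of all autosomal IDR peaks over all autosomal sequence. Gaps between divergent genes held 269 peaks (48.2 per Mb), gaps between genes in tandem 430 (41.5 per Mb) and gaps between convergent genes 50 (14.6 per Mb). The convergent rate was 0.304 of the divergent rate, and 0.273 to 0.312 with either replicate's list alone. The nearest start was reached from its upstream side at 577 peaks (77.0%). The matching share of the open sequence was not computed. Because gene bodies were excluded, a start could be reached from its downstream side only beyond the gene's far end, so no preference is read from this share. Within 500 bp of a coding gene's 3′ end lay 14.7% of the peaks and 14.7% of the open sequence.

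**Figure D2:**
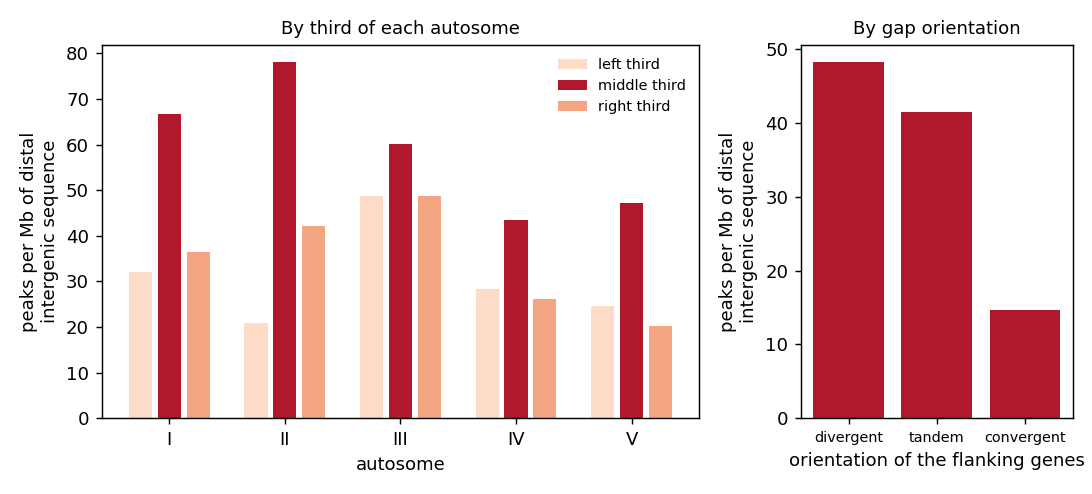
Bars show distal intergenic peaks without E-box per Mb of sequence that meets the same position rule, by equal segment of each autosome (left) and by orientation of the flanking coding genes (right). The middle segment is the highest in each autosome, from 43.6 per Mb on IV to 78.0 per Mb on II, and convergent gaps have 14.6 per Mb against 48.2 in divergent gaps.

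Within chromosomes, the peaks were denser in the middle. Each autosome was divided into 3 equal segments; in worms the centre recombines less and holds more broadly expressed and conserved genes than the arms. The middle segments held 337 peaks at 57.3 per Mb of open sequence, the left segments 187 at 29.4 and the right segments 225 at 31.5. The middle was above both outer segments in every autosome, at 66.6 per Mb on I, 78.0 on II, 60.2 on III, 43.6 on IV and 47.1 on V. The contrast was smallest on III, where both outer segments had 48.7 per Mb. Taken whole, autosome III was the densest (52.6 per Mb, 147 peaks), followed by II (46.0, 165), I (44.0, 124), IV (31.5, 158) and V (29.995, 155). The ratio of middle to outer segments was 1.88, and 1.81 to 1.91 from either replicate's list alone. These are counts from 1 list, and no test of them was made.

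Distances to the nearest coding start had quartiles of 1482, 2245 and 3523 bp, with 439 peaks (58.6%) beyond 2000 bp, 100 (13.4%) beyond 5000 bp and 22 beyond 10000 bp. Tiles as long as the summit windows, laid over the same open sequence (96442 in all), had a median of 2715 bp, 66.2% beyond 2000 bp and 21.3% beyond 5000 bp. The peaks thus lay somewhat nearer to starts than the sequence open to them, although the rule itself fixed the inner limit. Just outside that limit, 67 peaks lay 1001 to 1200 bp upstream of a start, with a median signal of 76.8, and just inside it, 73 promoter peaks without E-box lay 801 to 1000 bp upstream, with 65.0. At the E-box limit, 27 peaks had CACGTG centred up to 150 bp from the summit (median signal 84.0), 51 distal peaks with E-box had it 51 to 97 bp away (80.8) and 130 had it within 50 bp (108). At the signal limit, the lowest peak had 45.7 and the highest pooled peak of the same kind that failed IDR had 45.5.

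Some of the peaks were grouped, which is given as a description because no other class or background sequence was counted in the same way. With gaps of at most 2000 bp, 195 of the 749 (26.04%) fell into 86 runs, of which 73 were pairs and 13 held 3 or more, while the median gap to the next of the 749 was 52990 bp. Another IDR peak of any kind lay within 2000 bp of 309 (41.3%). Overlap was rare, with 20 peaks overlapping another of the 749.

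The longest run held 10 peaks over 9395 bp at II:6821040-6830434, in the gap of 18574 bp between snt-1 and egl-27. SNT-1 is synaptotagmin, the calcium sensor of synaptic vesicle release, and EGL-27 is a GATA-type zinc finger protein related to the metastasis-associated proteins of chromatin-remodelling complexes. The 10 signals, in order along the chromosome, were 50.4, 167, 56.0, 92.2, 83.1, 62.8, 73.6, 139.6, 59.5 and 61.4. Replicate 1 was higher than replicate 2 at 9 of the 10. The strongest had 98.5 in replicate 1 and 72.7 in replicate 2, and the next 72.7 and 69.0, whereas the weakest had 38.3 and 8.34. All 10 lay at least 4771 bp from the nearest start.

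Of the other 12 runs of 3 or more, the 2 longest and, among the 10 runs of 3, the 2 with the strongest peak are described, chosen after their values were seen. Upstream of bcl-11, a zinc finger factor gene, 5 peaks stood at V:6350131-6354568 with signals of 55.1 to 85.1. Between pde-2, a cyclic nucleotide phosphodiesterase gene, and R08D7.7, 4 peaks at III:8983852-8987227 had 74.5 to 255. Upstream of klf-1, a Krüppel-like factor gene, a peak of 235 (116 and 115 in the replicates) stood between peaks of 50.3 and 49.5. Upstream of lpin-1, the lipin phosphatidate phosphatase gene, the 3 peaks had 224, 142 and 90.7. Signals were even along the run at bcl-11 and uneven at klf-1. The other 8 runs of 3 had a strongest peak of 79.5 to 179. The 749 peaks had 624 distinct nearest genes, of which 17 had 3 or more peaks.

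GAGAGA was the most frequent of the searched hexamers other than E-boxes and was more frequent at distal than at promoter peaks. Each motif was searched within 100 bp of the summit on both strands and its share compared with intronic and promoter peaks without E-box by two-sided Fisher's exact tests, adjusted by Benjamini-Hochberg over 48 comparisons, of which 4 passed 0.05. GAGAGA stood in 402 of 749 distal peaks (53.7%, exact 95% interval 50.03 to 57.3%), in 52.2% of intronic peaks and in 40.7% of promoter peaks. The odds ratio against promoters was 1.69 (Fisher's exact test, adjusted p = 1.2e-06), and against introns 1.06 (adjusted p = 0.86). Only 10.5% of flanking windows 400 bp away and 10.5% of E-box-free tiles held it. From either replicate's list alone the odds ratio against promoters was 1.64 and 1.75. With a promoter window of 2000 bp it was 1.36 (Fisher's exact test, adjusted p = 0.052), and among the 351 peaks at or above the IDR median 1.39 (adjusted p = 0.31). Peaks of 1 list share both libraries, so these p-values cover variation between peaks and not between worm cultures.

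AGACGC was at 179 of the 749 peaks (23.9%), 23.1% of intronic and 24.1% of promoter peaks, against 3.64% of tiles. Fisher's exact test gave odds ratios of 1.05 and 0.99 against introns and promoters (adjusted p = 0.89 and 1.00). Both hexamers stood together at 124 peaks (16.6%). GCGCGC was at 56 (7.48%), with 8.86% of intronic, 10.8% of promoter peaks and 1.47% of tiles. Its odds ratio against promoters was 0.67 (Fisher's exact test, adjusted p = 0.12). It passed at 0.57 (Fisher's exact test, adjusted p = 0.018) from replicate 2's list alone and at 0.64 (adjusted p = 0.048) with a start window of 500 bp upstream. None of the 3 hexamers was found at 279 peaks (37.3%).

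**Figure D3:**
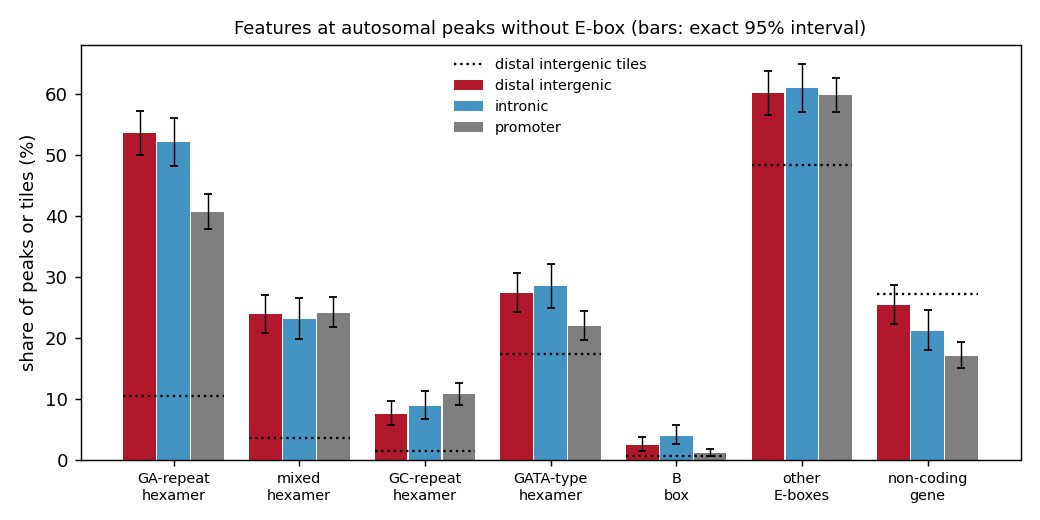
Bars give the share of autosomal peaks without E-box that hold each hexamer, the B box or another E-box within 100 bp of the summit, or a non-coding gene or pseudogene within 200 bp, for 749 distal intergenic, 632 intronic and 1198 promoter peaks, with exact 95% intervals. Dotted lines are window-sized tiles of distal intergenic sequence without E-box; the GA-repeat hexamer (GAGAGA) is at 53.7%, 52.2% and 40.7% of the peak classes and 10.5% of tiles, and the mixed hexamer is AGACGC.

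Matches were concentrated at the summit. In 20 bp bins, GAGAGA was at 11.7% of the 749 peaks in the bin centred 10 bp left of the summit and at 12.02% in the bin centred 30 bp right of it, and at 1.47% and 1.74% in bins centred 290 bp to either side. AGACGC had 4.54% in the bin centred 30 bp from the summit and 0.53% at 290 bp. Shares by quartile of signal, from weak to strong, were 47.3%, 52.4%, 50.8% and 64.2% for GAGAGA and 21.3%, 19.8%, 24.1% and 30.5% for AGACGC. The top quartile was the highest for both, with no steady rise below it. It was also the highest for both in intronic peaks (65.2% and 36.7%) and in promoter peaks (54.7% and 30%).

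**Figure D4:**
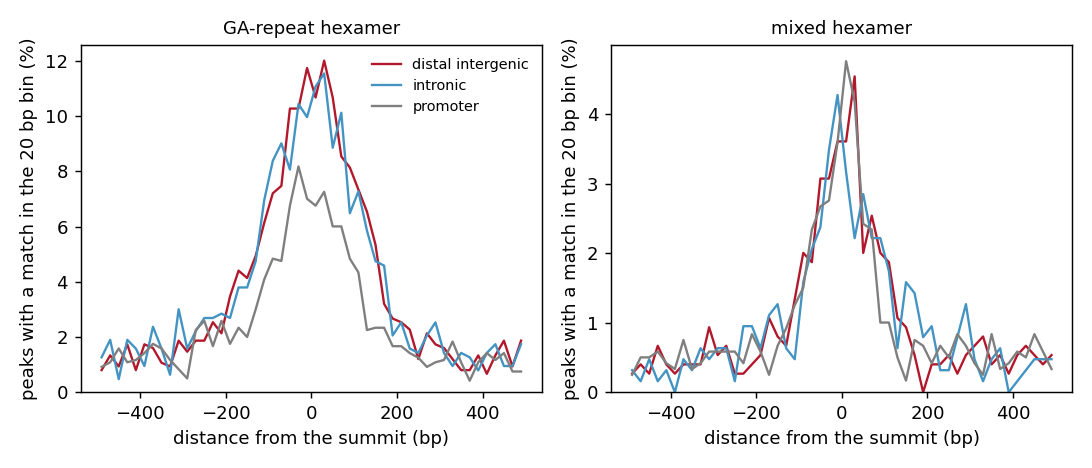
Lines give the share of peaks with a match starting in each 20 bp bin by distance from the summit, for the GA-repeat hexamer (GAGAGA, left) and the mixed hexamer (AGACGC, right), in distal intergenic, intronic and promoter peaks without E-box. For distal intergenic peaks the left line has its highest point at 12.02% and the right line at 4.54%, both in the bin centred 30 bp from the summit.

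Across all 2079 ranked 6-mers, counted on both strands at summits over flanks, the median ratio was 1.15 and the leading ratios were 12.6 for AGAGAG, 11.5 for CCCGGG (23 occurrences only), 11.3 for GAGAGA, 10.7 for CGCGCG and 9.55 for GCGCGC. Another simple repeat, ACACAC, had a ratio of 6.04 and was at 26.7% of the peaks against 7.30% of tiles. The windows were richer in G and C than their surroundings, with a median of 43.8% against 33.3% in flanks and 33.8% in tiles, and close to intronic (44.8%) and promoter peaks (41.8%). GC content and the shares of the 3 hexamers were both higher at the peaks than in flanks and tiles. Of the 3 peak classes, promoter peaks had the lowest median GC and the lowest share of GAGAGA (40.7%). They also had the highest shares of AGACGC (24.1%) and GCGCGC (10.8%). The part of GC content in the shares was not tested. Few summits (15.9%) were soft-masked as repeats in the reference, against 41.8% of flank centres.

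Long uninterrupted GA tracts marked a small group, chosen for description after values were seen. A run of at least 12 alternating G and A, or C and T on the other strand, was in 62 windows (8.28%), in 9.65% of intronic and 2.75% of promoter windows and in 0.513% of tiles. The longest within a window, 56 bases, belonged to a weak peak at ZK1128.7 (signal 59.0). The window of 100 bp to either side of its summit, III:10133174-10133374 on the plus strand of ce11, is printed to show the tract in capitals at the window's left edge, away from the summit.
ZK1128.7: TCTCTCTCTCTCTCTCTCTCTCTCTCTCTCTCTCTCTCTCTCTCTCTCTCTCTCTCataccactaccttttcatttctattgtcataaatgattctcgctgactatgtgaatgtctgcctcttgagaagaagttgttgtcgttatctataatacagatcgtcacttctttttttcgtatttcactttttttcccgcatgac
This is a single peak, and signal was not compared with tract length over the 62 windows. The chd-7 peak, with a signal of 359, had a tract of 17 bases. The strongest window, at mtm-3, held 3 separate matches to the hexamer and no tract of 12 bases.

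Other E-boxes and GATA-type sites differed little between the classes. A CANNTG hexamer other than CACGTG was at 451 (60.2%), 61.1% of intronic and 59.8% of promoter peaks, and 48.4% of tiles. CACATG, which differs from the canonical E-box at 1 base, was at 158 peaks (21.1%) against 5.97% of tiles, 23.7% of intronic and 16.4% of promoter peaks (odds ratio against promoters 1.36, Fisher's exact test, adjusted p = 0.090). CAAATG was at 17.5% against 11.9% of intronic peaks (odds ratio 1.57, Fisher's exact test, adjusted p = 0.047). That call was lost under 7 alternatives, with adjusted p from 0.051 to 0.56, and the odds ratio was 1.25 without replicate 2. TGATAA, the core site of GATA factors, was at 205 peaks (27.4%), 28.5% of intronic and 22.0% of promoter peaks and 17.3% of tiles. Its odds ratio against promoters was 1.34 (Fisher's exact test, adjusted p = 0.072), and passed 0.05 under 4 alternatives, at 1.35 to 1.43. CACGTG itself was centred within 500 bp of 106 peaks (14.2%).

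Because only protein-coding genes entered the rule, the peaks could lie at genes for non-coding RNAs, and 190 (25.4%) had such a gene or a pseudogene at or within 200 bp of the summit. The share was 17.1% for promoter peaks (odds ratio 1.65, Fisher's exact test, adjusted p = 0.00032) and 21.2% for intronic peaks (1.26, adjusted p = 0.27). Among peaks at or above the IDR median the odds ratio against promoters was 1.02 (Fisher's exact test, adjusted p = 1.00). The share of tiles was 27.1%, so the total did not stand above the open sequence, but its composition differed. Transfer RNA genes were at 2.14% of peaks and 0.196% of tiles, snoRNA genes at 2.67% and 0.165%, and genes of the general non-coding RNA class at 19.2% and 4.11%. Pseudogenes were at 0.668% of peaks and 14.4% of tiles, and piRNA genes at 1.60% and 7.99%. Of the intronic and promoter peaks, 3.64% and 1.59% were at snoRNA genes, 0.316% and 0.334% at pseudogenes, and 0.791% and 0.918% at piRNA genes.

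**Figure D5:**
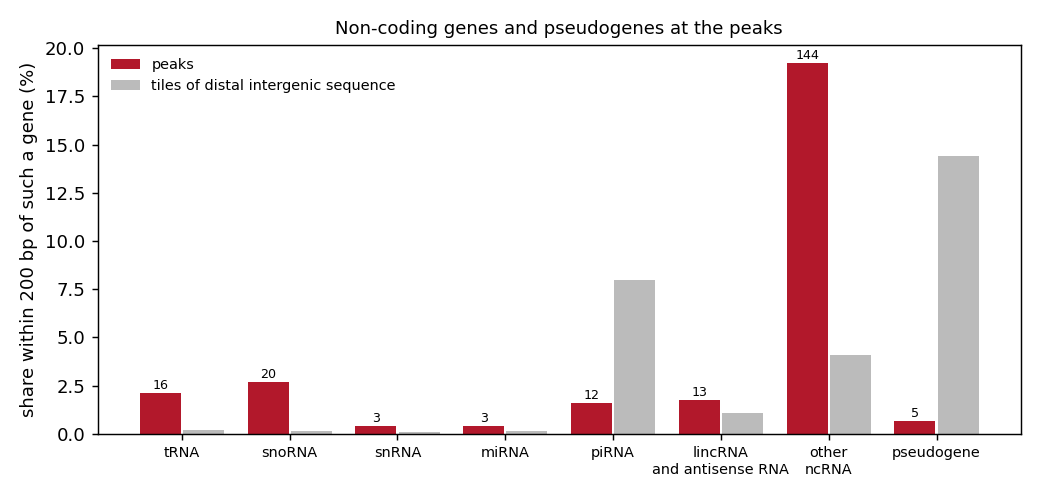
Bars give the share of the 749 distal intergenic peaks without E-box and of window-sized tiles of the same kind of sequence that lie within 200 bp of each class of non-coding gene or pseudogene; numbers above the bars count peaks. Genes for tRNAs and snoRNAs are at 2.14% and 2.67% of peaks against 0.196% and 0.165% of tiles, while pseudogenes are at 0.668% against 14.4%.

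Genes for the general non-coding RNA class, which the annotation does not name further, were at 144 peaks, with a median signal of 66.9. Their share of 19.2% was above the 13.4% of promoter peaks (odds ratio 1.54, Fisher's exact test, adjusted p = 0.010), but not past the threshold without replicate 2 (1.44, adjusted p = 0.056). Among peaks at or above the IDR median it was 0.84 (Fisher's exact test, adjusted p = 0.70), in the other direction. In 90 of the 749 peaks (12.02%) the summit itself lay inside a non-coding gene or pseudogene, against 15.1% of tiles.

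The 16 peaks at tRNA genes had signals of 47.3 to 135, with a median of 63.1. The strongest lay at B0350.t1 on chromosome IV, in the gap between K02B2.6 and unc-44, and had 135 pooled, 67.7 in replicate 1 and 68.2 in replicate 2. Next came F41A4.t1 (111, with 53.4 and 56.2) and T09B4.t1 (84.7, with 41.5 and 44.2). The tRNA share was 4.43% for intronic and 1.25% for promoter peaks, and neither comparison passed (odds ratios 0.47 and 1.72, Fisher's exact test, adjusted p = 0.12 and 0.42). The B box, the inner promoter element that RNA polymerase III uses at tRNA genes, was found at 18 peaks (2.40%), 3.96% of intronic and 1.09% of promoter peaks, and 0.619% of tiles (Fisher's exact test, adjusted p = 0.38 and 0.21).

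The 20 peaks at genes for snoRNAs, which guide modification of ribosomal RNA, had signals of 46.3 to 169. The strongest, inside F37A8.7 in the gap between nlp-10 and F37A8.5, had 169 pooled, 89.5 in replicate 1 and 81.0 in replicate 2. It was followed by ZK20.9 near din-1 (145, with 63.4 and 84.5) and C18A3.12 (115, with 59.3 and 54.96). All 3 genes annotated as snRNA that were at peaks were sls-2 genes, which encode the SL2 spliced leader that is trans-spliced onto downstream genes of operons. Both sls-2.2 (147, with 78.1 and 79.5) and sls-2.3 (71.1, with 37.4 and 38.7) lie near ins-13, and sls-2.9 near sepa-1 had 67.8 (33.2 and 34.2). That last summit was 120 bp from sls-2.9 and only 12 bp from the tRNA gene M01E5.t1, and its window holds a B box. The replicates differed little at these genes, with log2 ratios from -0.05 to -0.03.

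The windows of the strongest tRNA, snoRNA and SL2 peaks show how much of the summit sequence is the gene itself. Each reaches 50 bp to either side of the summit on the plus strand of ce11 (RefSeq), named by the non-coding gene, with capitals for bases inside that gene. They lie at IV:5967156-5967256, III:3953298-3953398 and II:5543645-5543745.
B0350.t1: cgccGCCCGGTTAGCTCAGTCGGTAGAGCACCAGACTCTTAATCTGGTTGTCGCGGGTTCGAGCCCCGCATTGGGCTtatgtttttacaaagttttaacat
F37A8.7: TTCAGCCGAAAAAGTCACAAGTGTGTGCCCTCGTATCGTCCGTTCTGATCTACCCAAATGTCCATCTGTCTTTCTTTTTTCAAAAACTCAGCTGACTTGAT
sls-2.2: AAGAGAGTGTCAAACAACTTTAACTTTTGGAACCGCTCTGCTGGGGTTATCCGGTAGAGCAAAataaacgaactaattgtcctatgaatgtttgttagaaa
The tRNA gene filled 73 of the bases and the spliced leader gene 63, and the snoRNA gene filled its window.

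MicroRNA genes were at 3 peaks, 0.401% against 0.164% of tiles. They were mir-53 (114, with 40.4 and 68.4 in the replicates), mir-238 (95.2, with 46.6 and 50.2) and mir-355 (58.9, with 40.1 and 25.4). No peak was at an rRNA gene. The 12 peaks at piRNA genes, whose products silence transposons in the germ line, were led by 21ur-13200 (157, with 94.7 and 67.6), 21ur-5229, which shares its peak with B0350.t1, and 21ur-6372 (110, with 63.3 and 44.5). The 13 at lincRNA or antisense genes were led by linc-91 and linc-128, given above, and linc-151 (140, with 68.7 and 73.2). The 5 pseudogenes were led by F07H5.5 (145, with 79.7 and 70.6), Y17D7C.3 (64.1, with 40.9 and 23.3) and Y48A6C.2 (53.8, with 26.9 and 30.6).

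By family of the nearest coding start, nuclear hormone receptors, the ligand-regulated factors that are unusually numerous in worms, were nearest to 26 of the 749 peaks (3.47%, 20 genes). They are 1.43% of the 17242 autosomal coding genes and were nearest to 3.28% of 1068 other autosomal non-promoter peaks. The 3 strongest were at nhr-21, given above, nhr-70 (138, with 74.3 and 67.9) and nhr-46 (135, with 69.3 and 65.3). Chemoreceptor genes were nearest to 10 peaks (1.34%), although they are 7.41% of autosomal coding genes; among other non-promoter peaks they were 1.22%. The strongest were str-230 (135, with 73.7 and 62.0), str-77 (67.0, with 41.5 and 26.9) and srab-24 (66.9, with 31.9 and 33.0). Both families thus had shares close to those of other non-promoter peaks; a gene with longer flanks is nearest to more sequence, and flank length was not adjusted for.

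Of the Wnt, Notch, EGF/Ras and TGF-beta list, 4 peaks (0.534%, against 0.209% of autosomal coding genes and 1.03% of other non-promoter peaks) were nearest to 3 genes. They included 2 at daf-4, the type II TGF-beta receptor (156, with 106 and 54.5, and 84.2, with 48.8 and 32.3), and 1 at lon-1, a secreted regulator of body length (113, with 67.0 and 43.7). Of the heterochronic genes, which time larval development, lin-41 alone was represented, by 2 peaks (0.267%, against 0.046% of genes and 0.936% of other non-promoter peaks). These had 130 and 95.2, stood 199 bp apart and share the replicate values 69.0 and 68.7. The bHLH and GATA list had 10 peaks (1.34%, against 0.203% of genes and 0.936% of other non-promoter peaks) at 2 genes, 9 of them at egl-27.

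F-box and MATH/BTB genes, large families of ubiquitin ligase adaptors, were nearest to 4 peaks (0.534%, against 2.29% of genes and 0.187% of other non-promoter peaks), at fbxa-30 (173, with 82.2 and 92.6), fbxa-167 (130, with 63.9 and 61.3) and bath-44 (122, with 72.6 and 49.9). Homeobox genes had 2 (0.267%, against 0.400% of genes and 0.468% of other non-promoter peaks), ceh-48 (73.2, with 44.7 and 30.3) and hmbx-1 (62.3, with 32.7 and 26.6). Cuticle collagens had 3 (0.401%, against 0.841% and 0.468%), col-98 (59.8, with 40.2 and 23.1), rol-8 (59.0, with 28.8 and 29.2) and col-108 (58.2, with 27.6 and 28.6). C-type lectins had 2 (0.267%, against 1.37% and 0.094%), led by clec-91 (137, with 68.4 and 68.3). Neuropeptide and insulin-like genes had 3 (0.401%, against 0.650% and 0.094%), at ins-13 and nlp-40 (59.4, with 33.3 and 26.1). None of the peaks was nearest to 171 detoxification enzyme genes, 68 histone genes or the 3 autosomal genes of the Myc and Mad network itself, where the other non-promoter peaks had 6, 0 and 1.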

How the data were processed

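Transcription factor ChIP-seq of 2 biological replicates of L4 larvae was used as ce11 peak lists, 1 per replicate (29572 and 28282 peaks), 1 pooled and 1 after IDR; per the labels the replicates are biological, and no line was identical between their lists. The deposited signal of each peak is the authors' caller's own value, on a scale that no source here states, and single-replicate values are on another scale than pooled ones. The deposited −log10 q-value entered no comparison. No source used here names the aligner, the caller, their versions or the IDR cutoff. The ce10 lists were not used here.

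Summits were placed against Ensembl release 115 genes (19973 coding genes, 19965 with a RefSeq symbol) and RefSeq sequence of the same assembly, with Python 3.11.15, pandas 2.3.3 and scipy 1.17.1; coordinates are 1-based. Replicate signal is that of the strongest peak overlapping by at least 1 bp. Shares were compared by two-sided Fisher's exact tests with Benjamini-Hochberg adjustment over 48 comparisons (statsmodels 0.14.6), after the code was tested on simulated data. Intervals cover counting error only. The peaks and lists were chosen with earlier results of these data known. Named peaks were the 20 strongest, the strongest per autosome, up to 3 per non-coding class and gene list, the 4 extreme replicate ratios, the 2 farthest from starts and the longest run.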

Additional observations from a re-analysis of the deposited data

How the results depend on the processing

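Of 240 values recomputed under alternatives, 200 were classed as unchanged, which for odds ratios meant the same direction and side of the threshold. Values classed so included the median log2 replicate ratio, although it went from 0.13 to -0.02 without replicate 1. They also included a count of 944 peaks with a start window of 500 bp upstream. The number of peaks was 480 with a start window reaching 2000 bp upstream and 351 at or above the median IDR signal. The share overlapped in both lists was 93.3% with 50% overlap, and 97.6 to 98.3% with either replicate left out. Against promoters, the GAGAGA odds ratio lost its call at 1.36 (2000 bp window) and 1.39 (at or above the median), and any non-coding gene at 1.02 (at or above the median). TGATAA against promoters gained a call at 1.35 (CACGTG within 50 bp), 1.43 (within 200 bp) and 1.38 (neighbours joined), with 1.35 to 1.37 when either replicate was left out. GCGCGC against promoters gained one at 0.64 (500 bp window) and had 0.57 to 0.65 with either replicate left out. Odds ratios that changed side of 1 without being called were, against introns, GAGAGA at 0.88 (2000 bp window) and 0.96 (at or above the median), AGACGC at 0.98 and 0.88, TGATAA at 1.00 and 1.47, and at or above the median other E-boxes at 1.07, any non-coding gene at 0.75 and other ncRNA at 0.71. Against promoters they were AGACGC at 1.02 (midpoint), 1.03 (joined) and 1.03 (motif window of 150 bp), other E-boxes at 0.99 (joined) and other ncRNA at 0.84 (at or above the median). With either replicate left out, AGACGC against introns ran from 0.99 to 1.01, other E-boxes from 0.93 to 1.13 against introns and 0.99 to 1.04 against promoters. Alternatives added after seeing the data left convergent over divergent density, middle over outer segments and tRNA, snoRNA and piRNA shares over tiles within 1.5 times. The pseudogene share over tiles went from 0.046 to 0.020 at or above the median. The cause of these changes was not tested. No paired analysis was possible because there is 1 group. Depth is unknown, and 2 replicates and 1 pooled list limit what the peak-level tests cover.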
